A study of Mus musculus with 8 samples.

Results

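Regulatory T (Treg) cells that lacked the microRNA cluster miR-181a/b-1 were compared between the thymus, where they are made, and the spleen, where they circulate and act. The comparison rested on 4 of the 8 arrays of the series, with 2 arrays of thymic and 2 arrays of splenic Treg cells, and covered 22180 genes. Both groups were homozygous for a germline deletion of the cluster (miR-181a/b-1-/-, KO) on a C57Bl/6J background. Per the labels all mice also carried a green fluorescent protein (GFP) reporter at the Foxp3 locus, and the cells were obtained by flow sorting for GFP together with CD4 and CD25. Mice were 7 to 12 weeks old per the study's methods. The study's methods describe instead a human CD2 reporter at the Foxp3 locus and GFP at the Rag1 locus, where it marks recent Rag1 expression, and the labels were followed. Each KO pool held 2 females and 1 male per the series' design text, and thymus and spleen array of one number came from the same pool, called KO1 and KO2 here. The other 4 arrays, of thymic and splenic Treg cells from mice heterozygous for the deletion (miR-181a/b-1+/-, HET), served as a second view of the same organ difference. The deletion affects every cell of the animal, each array averages over pooled mice, and the sort as labelled held no marker of cell age, so newly made Treg cells of the thymus could not be told apart from cells that had returned there from the circulation.

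Treg cells restrain immune responses and depend on the transcription factor Foxp3. In the thymus they arise from CD4 single-positive thymocytes whose T-cell receptor (TCR) binds self-antigen strongly, and the cells then mature and leave for the periphery, where part of them take on an effector state. miR-181a is abundant in thymocytes at selection and tunes how strongly they respond through the TCR. The question put to these arrays was which transcripts set thymic Treg cells apart from splenic ones when the cluster is missing.

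The deleted cluster encodes Mir181a-1 and Mir181b-1 on chromosome 1, and paralogous loci encode the same mature 5p strands elsewhere. Mature sequences of the deleted locus, and a 3p strand of a remaining locus for comparison, are shown because they define the deletion that all 4 KO arrays share, with the seed (bases 2 to 8) in capitals. They are RefSeq entries on build GRCm38.p6, plus strand.
miR-181a-5p, from Mir181a-1 at chr1:137966468-137966490: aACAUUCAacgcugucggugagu
miR-181b-5p, from Mir181b-1 at chr1:137966650-137966673: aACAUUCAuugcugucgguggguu
miR-181a-1-3p, at chr1:137966508-137966529: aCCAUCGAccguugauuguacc
miR-181a-2-3p, from Mir181a-2 at chr2:38852785-38852806: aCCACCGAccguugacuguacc
Both 5p strands share the seed ACAUUCA. Identical 5p sequences are also made from Mir181a-2 and Mir181b-2 on chromosome 2, which the deletion leaves in place, whereas the 3p strands of the loci differ, as the last pair of sequences shows.

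On the arrays, levels are log2 intensities. Since T cells do not use olfactory receptors, the level below which the same array held 95% of its 1088 olfactory receptor genes served as background, and it was between 4.55 and 4.68 on the KO arrays. Mir181a-1 was at 2.42 and 2.57 in KO thymus, against 1.81 and 2.40 in KO spleen. Mir181b-1 was at 2.26 and 2.29 in KO thymus, against 2.44 and 2.29 in KO spleen. Both precursors thus lay under background on all 4 arrays, but they did so on the HET arrays too, so that they gave no readout of the deletion. The intact paralogue Mir181b-2 was at 4.80 and 4.89 in KO thymus and at 3.88 and 3.89 in KO spleen, which was under background. Its difference was 0.96 as measured and at least 0.28 against background (adjusted p = 0.00255). Mir181a-2 was at 4.73 and 5.38 in KO thymus and at 4.59 and 4.74 in KO spleen, a difference of 0.40 that did not pass (adjusted p = 0.473). Mir181d differed by 0.35 (adjusted p = 0.275) and Mir181c by 0.09 (adjusted p = 0.832). Array probes for such precursors do not measure the mature strands. Mir142, host to another miRNA of blood cells, was at 6.24 and 6.26 in KO thymus and at 7.49 and 7.20 in KO spleen, with no overlap (-1.10, adjusted p = 0.00207).

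Of 22180 genes, 381 passed the threshold between KO thymus and KO spleen (limma, Benjamini-Hochberg adjusted p under 0.05), which is 1.72% of those tested. Of these, 165 were higher in KO thymus (0.744%) and 216 were lower (0.974%). They are referred to as called, and differences are log2 values of KO thymus minus KO spleen, fitted on all 8 arrays. With quantile normalization the split was 206 higher and 179 lower, so the share of higher genes moved to 53.5%, against 43.3% as deposited. With the mouse pool as a block and only the 4 KO arrays, 849 genes were called, among them all 381. Past 2-fold lay 51 genes in each direction, and past 4-fold 6 higher and 5 lower genes. Of the called genes, 324 were above background on all 4 arrays, and 19 were under background in both organs and carry little information. In all 381 the arrays of both organs did not overlap, as was the case for 44.9% of all genes tested (22.8% higher and 22.1% lower). The number of calls depended on single arrays, with 338 genes called without thymus KO replicate 1, 178 without thymus KO replicate 2, 100 without spleen KO replicate 1 and 97 without spleen KO replicate 2. A total of 63 genes kept the call whichever single KO array was left out. The CI (95% confidence interval) excluded a 2-fold difference for 97.3% of all genes, and the median difference over all genes was 0.01.

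**Figure D1:**
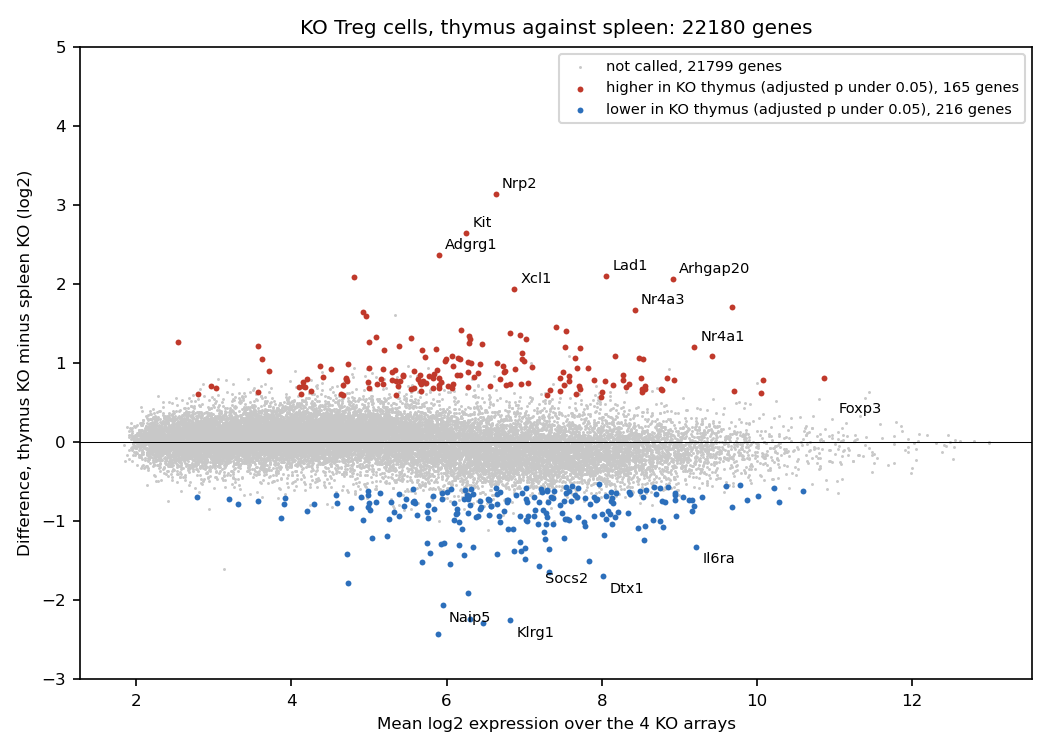
Difference between KO thymus and KO spleen (log2, vertical axis) against the mean log2 expression over the 4 KO arrays (horizontal axis), 1 point per gene. Red points are the 165 genes called higher in KO thymus, blue points the 216 called lower, grey points genes not called. Nrp2 and Kit lie highest and Foxp3 is among the genes not called.

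The labels of the pools were checked first. Xist, the RNA of the inactive X chromosome, was at 9.40 and 8.80 in KO thymus and at 8.93 and 9.05 in KO spleen. It was at 3.90 and 4.40 in HET thymus and at 3.89 and 3.58 in HET spleen, under background, which goes against the mostly female HET pools of the design text and touches every value given for HET below. Foxp3 was at 11.10 and 11.13 in KO thymus, against 10.86 and 10.79 in KO spleen, and did not pass (0.29, CI 0.03 to 0.55, adjusted p = 0.267). Il2ra, which encodes CD25 and was used in the sort, was at 11.03 and 10.99 in KO thymus and at 11.18 and 11.20 in KO spleen (-0.18, CI -0.44 to 0.08). Cd4 was at 10.81 and 10.63 in KO thymus and at 11.40 and 11.33 in KO spleen (-0.65, adjusted p = 0.0954). Levels of all 3 sort markers were thus high on every array. Of 12 measured myeloid and 10 dendritic-cell markers 0 were called, as were 0 of 10 markers of thymic stroma. The same held for 0 of 10 of natural killer and innate-like T cells, 0 of 5 of plasma cells and 0 of 3 of erythroid cells. Since 1.72% of all genes were called, 0 calls among so few markers tell little about other cells. Under background in both organs were 5 of the myeloid, 5 of the dendritic-cell and 6 of the stroma markers. So were 6 of the natural killer and innate-like T-cell, 2 of the plasma-cell and 1 of the erythroid markers. Of 9 measured markers of double-positive thymocytes and CD8 T cells 2 were higher in KO thymus, and their summed linear signal was 403 to 489 in KO thymus and 330 to 349 in KO spleen. Cd8a, a CD8 coreceptor chain, was at 6.22 and 5.27 in KO thymus and under background at 4.06 and 4.15 in KO spleen, at least 1.19 apart. Dntt, the nucleotide-adding enzyme of receptor rearrangement, was at 4.62 on thymus KO replicate 1, just above background. It was under background at 4.59 on thymus KO replicate 2 and at 3.81 and 3.80 in KO spleen (adjusted p = 0.0144). Among 10 measured B-cell markers, of which 7 were under background in both organs, only Ighm was called. This immunoglobulin heavy chain was at 9.97 and 9.83 in KO thymus and at 10.65 and 10.68 in KO spleen (-0.76, adjusted p = 0.0124). Ighm lost its call when its probe sets were averaged. The summed B-cell signal, 1089 to 1208 in KO thymus and 1824 to 1864 in KO spleen, came mostly from Ighm. Over all 10 B-cell markers the median difference was -0.01, with 5 above and 5 below 0. Of 5 platelet markers 1 was lower, Itgb3 (-0.59). The summed signal of the dendritic-cell markers was 1065 to 1078 in KO thymus and 772 to 800.0 in KO spleen, and that of the natural killer and innate-like T-cell markers was 455 to 561 in KO thymus and 375 to 394 in KO spleen. What part these cells had in the results below was not tested. In sorted pools more transcript per cell and more cells with the transcript cannot be told apart.

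Nrp2 stood highest among the called genes. This neuropilin, a coreceptor for semaphorins and vascular growth factors, was at 8.48 and 7.92 in KO thymus, against 5.02 and 5.11 in KO spleen. The difference of 3.14 (CI 2.72 to 3.55, adjusted p = 3.12e-05) corresponds to 8.79-fold. Its relative Nrp1, a semaphorin coreceptor found on Treg cells made in the thymus, was at 9.36 and 9.18 in KO thymus and at 9.45 and 9.27 in KO spleen (-0.09, CI -0.41 to 0.23). Of this coreceptor pair only Nrp2 was called. Of 9 measured plexins, which are semaphorin receptors, 0 were called, against 1.72% of all genes. Plxna2, Plxna4 and Plxnb3 were under background in both organs and Plxnb2 was partly so. The 0 calls among so few plexins tell little. Kit, the receptor for stem cell factor, was at 7.70 and 7.46 in KO thymus and at 5.09 and 4.78 in KO spleen (2.64, adjusted p = 4.76e-05). Adgrg1, an adhesion receptor, was at 7.26 and 6.91 in KO thymus and at 4.49 and 4.94 in KO spleen, where 1 array lay under background (2.37, adjusted p = 5.52e-05). Arrays of the organs did not overlap for Nrp2, Kit and Adgrg1, which holds for all 381 called genes and for 44.9% of all genes. Those of Nrp1 overlapped.

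Other strongly higher genes included Lad1, a basement membrane and cytoskeletal linker, at 9.24 and 8.98 in KO thymus and 6.80 and 7.21 in KO spleen (2.1). Arhgap20, a GTPase-activating protein, was at 10.07 and 9.83 in KO thymus and at 8.0 and 7.78 in KO spleen (2.06). Xcl1, the chemokine lymphotactin, was at 8.26 and 7.42 in KO thymus and at 5.86 and 5.94 in KO spleen (1.94). Il1r2, the decoy receptor for interleukin-1, was at 8.24 and 8.06 in KO thymus and at 6.50 and 6.88 in KO spleen (1.46). Il1r2 lost its call without spleen KO replicate 1. Selp, which encodes the adhesion molecule P-selectin, was at 7.02 and 6.90 in KO thymus and at 5.43 and 5.81 in KO spleen (1.34). The remaining genes among the 15 with the largest differences were H2ac10, a histone gene with close relatives that probes may not separate (1.71), Tff1, a secreted trefoil peptide (1.42), the transcriptional cofactor Lmo4 (1.41, not called without spleen KO replicate 1), Lactb (1.3) and those described below. Pde7b, a cyclic AMP phosphodiesterase, was at 6.26 and 5.44 in KO thymus and under background at 3.40 and 4.14 in KO spleen, at least 1.29 apart and thus at least 2.45-fold higher.

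**Figure D2:**
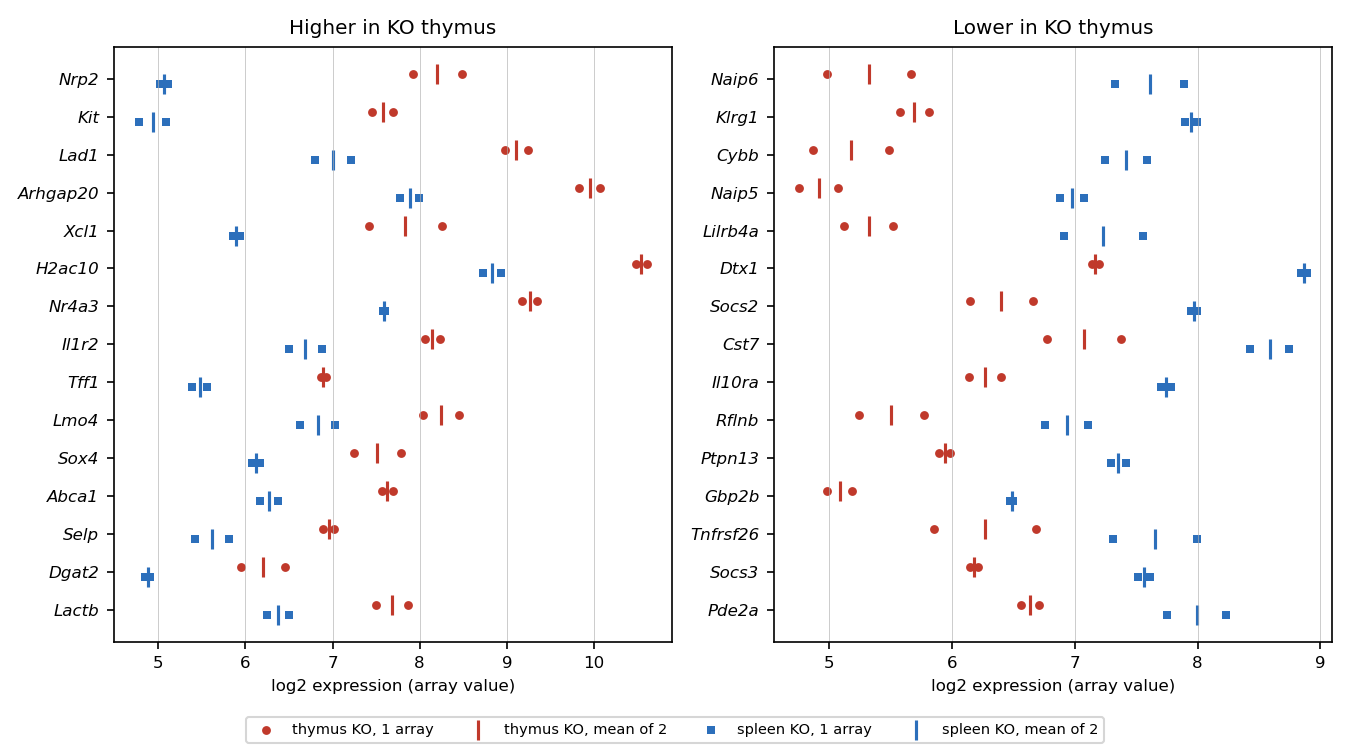
Log2 expression on each array for the 15 genes with the largest differences in each direction among called genes above background on all 4 KO arrays. Red circles are KO thymus arrays, blue squares KO spleen arrays, and upright bars the mean of 2. For every gene shown both thymus arrays lie on one side of both spleen arrays, as for all 381 called genes.

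Genes lower in KO thymus were led by receptors and innate sensors. Klrg1, an inhibitory receptor of terminally differentiated lymphocytes, was at 5.81 and 5.58 in KO thymus, against 8.0 and 7.90 in KO spleen (-2.25, CI -2.56 to -1.94, adjusted p = 3.12e-05). Cybb, the catalytic subunit of the phagocyte NADPH oxidase, was at 5.49 and 4.87 in KO thymus and at 7.25 and 7.59 in KO spleen (-2.24). Lilrb4a, an inhibitory immunoglobulin-like receptor, was at 5.12 and 5.52 in KO thymus and at 6.91 and 7.55 in KO spleen (-1.91), and lost its call without spleen KO replicate 2 or thymus KO replicate 1. Cst7, a cysteine protease inhibitor of cytotoxic cells, was at 6.77 and 7.38 in KO thymus and at 8.43 and 8.75 in KO spleen (-1.51). Il10ra, the ligand-binding chain of the interleukin-10 receptor, was at 6.40 and 6.14 in KO thymus and at 7.79 and 7.70 in KO spleen (-1.48). Dtx1, an E3 ligase and target of Notch signalling, was at 7.20 and 7.14 in KO thymus and at 8.84 and 8.89 in KO spleen (-1.70, adjusted p = 4.76e-05). Dtx1 was the only call among 14 measured Notch pathway genes, against 1.72% of all genes, and the median of the 14 was -0.01. Notch1 itself was at 8.59 and 8.53 in KO thymus and at 8.62 and 8.71 in KO spleen (-0.10, adjusted p = 0.734). Further members of the leading 15 were Rflnb (-1.43), the phosphatase gene Ptpn13 (-1.41), the GTPase gene Gbp2b (-1.40), Tnfrsf26 (-1.38), which lost its call with quantile normalization and without spleen KO replicate 1, spleen KO replicate 2 or thymus KO replicate 1, and the phosphodiesterase gene Pde2a (-1.36). Ly6c2, a Ly6 family surface antigen, was under background at 4.11 and 3.91 in KO thymus and at 5.33 and 5.53 in KO spleen, at least 0.80 apart.

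The Naip family, cytosolic sensors that recognise bacterial flagellin and secretion components, was lower as far as it was measured. Naip6 was at 5.67 and 4.98 in KO thymus and at 7.33 and 7.89 in KO spleen (-2.29, adjusted p = 0.00058). Naip5 was at 4.76 and 5.08 in KO thymus and at 6.88 and 7.08 in KO spleen (-2.06). Naip2 was under background at 4.04 and 3.66 in KO thymus and at 5.33 and 5.92 in KO spleen, at least 0.99 apart. These genes are near-identical copies, so that their probe sets may report one another. The inflammatory caspases Casp1 (6.67 and 6.70 in KO thymus, 7.66 and 7.99 in KO spleen, -1.14) and Casp4 (-0.85) were lower too. The adaptor Pycard (0.13, adjusted p = 0.701) and the pore former Gsdmd (-0.42, adjusted p = 0.157) did not pass, and Nlrc4, the partner of the Naip proteins, was under background in both organs. In all, 5 of 9 measured inflammasome genes were lower and 0 were higher, and 3 were lower without thymus KO replicate 1, thymus KO replicate 2 or spleen KO replicate 2. Over all genes 0.974% were called lower and 0.744% higher. The inflammasome group was put together after its values had been seen and is given as a description. The same holds for the sterol, oxidase, phosphodiesterase and neuropilin groups.

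The genes that define Treg cells moved in both directions. Of 22 Treg identity genes 3 were called higher and 3 lower, against 0.744% and 0.974% of all genes. Their median was -0.08, and the remaining 16 did not pass. Without spleen KO replicate 2, 1 of these genes was called, and without spleen KO replicate 1, 3 were. Ikzf4, which encodes the Foxp3 partner Eos, was at 9.25 and 9.25 in KO thymus and at 8.45 and 8.44 in KO spleen (0.81, adjusted p = 0.00784). Tnfrsf4, the costimulatory receptor OX40, was at 10.43 and 10.31 in KO thymus and at 9.68 and 9.81 in KO spleen (0.62), and Plagl1, a zinc-finger factor, differed by 0.90. Lower were Entpd1, which encodes the ectonucleotidase CD39, at 6.73 and 6.81 in KO thymus and 7.70 and 7.90 in KO spleen (-1.04), Izumo1r, the folate receptor 4 (-0.69), and Socs2. Ctla4, an inhibitory receptor of Treg cells, was at 9.05 and 8.89 in KO thymus and at 9.31 and 9.14 in KO spleen, whose CI reached from -0.54 to 0.02 (-0.26, adjusted p = 0.364). Ikzf2, which encodes Helios, differed by 0.19 (CI -0.11 to 0.48). The inhibitory receptor Tigit was at 6.93 and 6.83 in KO thymus and at 7.97 and 7.79 in KO spleen without passing (-1.0, adjusted p = 0.0554).

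Among TCR-induced genes the Nr4a family was higher in KO thymus. These nuclear receptors are induced within hours of TCR engagement and report its strength. Nr4a3 was at 9.34 and 9.18 in KO thymus, against 7.58 and 7.60 in KO spleen (1.67, CI 1.39 to 1.94). Nr4a1, which encodes Nur77, was at 9.96 and 9.63 in KO thymus and at 8.55 and 8.64 in KO spleen (1.20, CI 0.89 to 1.51, adjusted p = 0.0018). Nr4a2 was at 7.33 and 7.09 in KO thymus and at 6.31 and 6.19 in KO spleen (0.96). All 3 members were higher on both thymus arrays, which holds for every gene called higher. Also higher were Bhlhe40, a transcriptional repressor (0.93), and Dusp5, a phosphatase of ERK (0.73). This made 5 of 18 measured TCR response genes higher and 0 lower, against 0.744% and 0.974% of all genes, with a median of 0.17. Egr1 (0.55, adjusted p = 0.101), Egr2 (0.15) and Egr3 (0.14), zinc-finger factors of the same response, did not pass. Cd5, whose level follows TCR signal strength, was at 10.74 and 10.65 in KO thymus and at 10.76 and 10.80 in KO spleen (-0.09, CI -0.35 to 0.18). Between 2 and 4 of the 5 calls were left when 1 KO array was dropped. Among 16 immediate early and stress genes, which can be set off by cell handling, 1 was higher (Fosl2, 0.92) and 1 lower (Klf6, -0.70), with a median of 0.05. Signalling parts of the NF-kappa-B pathway included Rel (10.57 and 10.37 in KO thymus, 9.68 and 9.69 in KO spleen, 0.78) and the coactivator Bcl3 (0.81). With Tnfrsf4, 3 of 19 genes of this list were higher and 0 lower, against 0.744% and 0.974% of all genes. All 3 calls depended on single KO arrays. The median of the list was 0.17, and 0.06 to 0.25 when single KO arrays were dropped. Bcl3 also lost its call with array weights and on only the 4 KO arrays. Of 8 measured literature targets of miR-181 only Dusp5 was called, against 1.72% of all genes, and the median of the 8 was -0.07. Dusp5 is also among the TCR response calls above, and its call depended on single KO arrays. So few genes tell little about such targets.

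Marks of immaturity were partly higher in KO thymus. Among 16 measured genes listed for immature CD4 thymocytes, 4 were called higher and 2 lower, against 0.744% and 0.974% of all genes. Their median was 0.28. Myb, a transcription factor of progenitors, was at 9.02 and 9.10 in KO thymus and at 8.0 and 8.02 in KO spleen (1.05, adjusted p = 0.00207). Sox4, another developmental factor, was at 7.78 and 7.24 in KO thymus and at 6.17 and 6.08 in KO spleen (1.38), and lost its call whenever 1 KO array was left out. Cd24a, a surface antigen lost as thymocytes mature, was at 6.08 and 5.44 in KO thymus and at 4.26 and 4.60 in KO spleen, where 1 array was under background (1.33). Itm2a, a membrane protein of selected thymocytes, differed by 0.78. The receptor Ccr4 (-0.93) and the TCR signalling protein Tespa1 (-0.74) went the other way. Genes listed for egress and maturation were mostly lower as measured, while the egress genes S1pr1 and Klf2 hardly differed. S1pr1, the egress receptor for sphingosine 1-phosphate, was at 9.53 and 9.47 in KO thymus and at 9.52 and 9.37 in KO spleen (0.06, CI -0.21 to 0.33). Klf2, the factor that drives it, was at 8.84 and 8.95 in KO thymus and at 8.91 and 8.96 in KO spleen (-0.04). Lower were Cd55, which protects from complement (5.35 and 5.96 in KO thymus, 6.57 and 6.76 in KO spleen, -1.01), Klf3 (-0.64) and Ly6c1, which was under background in both organs. Of 18 measured egress and maturation genes 15 had a negative difference, against 48% of all genes, with a median of -0.33. Called were 1 higher, Cd24a, and 3 lower, against 0.744% and 0.974% of all genes.

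The 8 Gimap genes, lymphocyte GTPases that rise with T-cell maturation and support survival, were each lower in KO thymus as measured, and 4 were called. Over all genes 48% had a negative difference and 0.974% were called lower. Gimap7 was at 6.84 and 6.87 in KO thymus, against 7.88 and 7.89 in KO spleen (-1.03, adjusted p = 0.004). Gimap3 was at 10.32 and 10.25 in KO thymus and at 10.91 and 10.89 in KO spleen (-0.62). Gimap4 (-0.58) and Gimap8 (-0.59) were the other calls. The median of the family was -0.58, and it lay between -0.61 and -0.52 when single KO arrays were dropped, while the number called then was 1, or 0 without spleen KO replicate 2. With quantile normalization 1 was called. Il6ra and Igfbp4, genes of resting T cells, were lower as well. Il6ra, a chain of the interleukin-6 receptor, was at 8.62 and 8.50 in KO thymus and at 9.89 and 9.87 in KO spleen (-1.32, adjusted p = 0.00191). Igfbp4, an insulin-like growth factor binding protein, was at 7.46 and 7.42 in KO thymus and at 8.51 and 8.72 in KO spleen (-1.18). These 2 were the only calls among 14 measured genes of naive and resting T cells.

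Chemokine receptors divided by organ. Of 16 measured, 2 were called higher and 4 lower in KO thymus, against 0.744% and 0.974% of all genes. Ccr6, the receptor for CCL20, was at 8.29 and 8.08 in KO thymus and at 7.11 and 7.12 in KO spleen (1.07, adjusted p = 0.0126). Ccr8, a receptor of activated Treg cells, was at 8.11 and 7.77 in KO thymus and at 6.96 and 7.14 in KO spleen (0.89). Cxcr3, a receptor for interferon-induced chemokines, was at 6.55 and 6.09 in KO thymus and at 7.53 and 7.64 in KO spleen (-1.26, adjusted p = 0.00233). Cxcr5, the follicle-homing receptor, was at 6.71 and 6.60 in KO thymus and at 7.63 and 7.77 in KO spleen (-1.04), and Gpr183, an oxysterol receptor that positions cells at the edge of follicles, differed by -0.74. Ccr7, which guides cells into lymphoid zones, was at 10.03 and 9.80 in KO thymus and at 9.70 and 9.89 in KO spleen, overlapping (0.11). Ccr9, a receptor of thymocytes and gut-homing cells, differed by 0.25 (adjusted p = 0.392). Cxcr3 was the only receptor of these whose call did not depend on any single KO array, and between 1 and 2 of the 6 calls were left in each case.

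Called effector Treg genes went in both directions, although more members of the list were lower than higher. Of 35 measured 3 were called higher and 5 lower in KO thymus, against 0.744% and 0.974% of all genes. A negative difference was seen in 25 of the 35, against 48% of all genes, with a median of -0.18. Beside Klrg1 and Cxcr3, Maf, a transcription factor of interleukin-10 producing cells, was lower, at 6.68 and 6.64 in KO thymus and 7.87 and 7.90 in KO spleen (-1.23, adjusted p = 0.000524), as were the calcium-binding S100a6 (-0.93) and S100a10 (-0.55). S100a10 lost its call with the mouse pool as a block, with quantile normalization, with array weights, on only the 4 KO arrays and without any 1 KO array. Higher were Ccl5, an inflammatory chemokine, at 8.40 and 7.86 in KO thymus and 7.08 and 6.78 in KO spleen (1.20), Ccr6 and Bhlhe40. Klrg1, Cxcr3 and Maf kept their calls without any 1 KO array, and between 3 and 4 genes of the list were called when 1 was left out. Prdm1, which encodes the effector factor Blimp-1, was at 6.18 and 6.00 in KO thymus and at 6.52 and 6.32 in KO spleen (-0.33, adjusted p = 0.327), and Icos, a costimulatory receptor, differed by -0.37 (adjusted p = 0.278).

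Of the inhibitors of cytokine signalling, Socs2 and Socs3 were lower. Socs3, induced through STAT3, was at 6.15 and 6.22 in KO thymus, against 7.52 and 7.61 in KO spleen (-1.38, adjusted p = 0.00204). Socs2, induced through STAT5, was at 6.66 and 6.15 in KO thymus and at 7.99 and 7.95 in KO spleen (-1.57). Cish and Socs1, of the same protein family, were at 8.46 and 8.45 and at 7.19 and 7.27 in KO thymus, and at 8.39 and 8.42 and at 7.16 and 7.06 in KO spleen, and did not pass. Stat5a, a transducer of interleukin-2 signals, was higher (8.38 and 8.22 in KO thymus, 7.51 and 7.51 in KO spleen, 0.79). Within the list of 14 interleukin-2 and STAT5 genes 1 was thus higher and 2 lower, against 0.744% and 0.974% of all genes. Stat5b (0.17) and Il2rb (-0.26) did not pass. Of 14 measured Bcl2 family genes 0 were called, against 1.72% of all genes, which tells little about so few genes. Bcl2l11, which encodes the death-promoting Bim, was at 7.24 and 6.81 in KO thymus and at 7.59 and 7.46 in KO spleen (-0.50, adjusted p = 0.199).

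**Figure D3:**
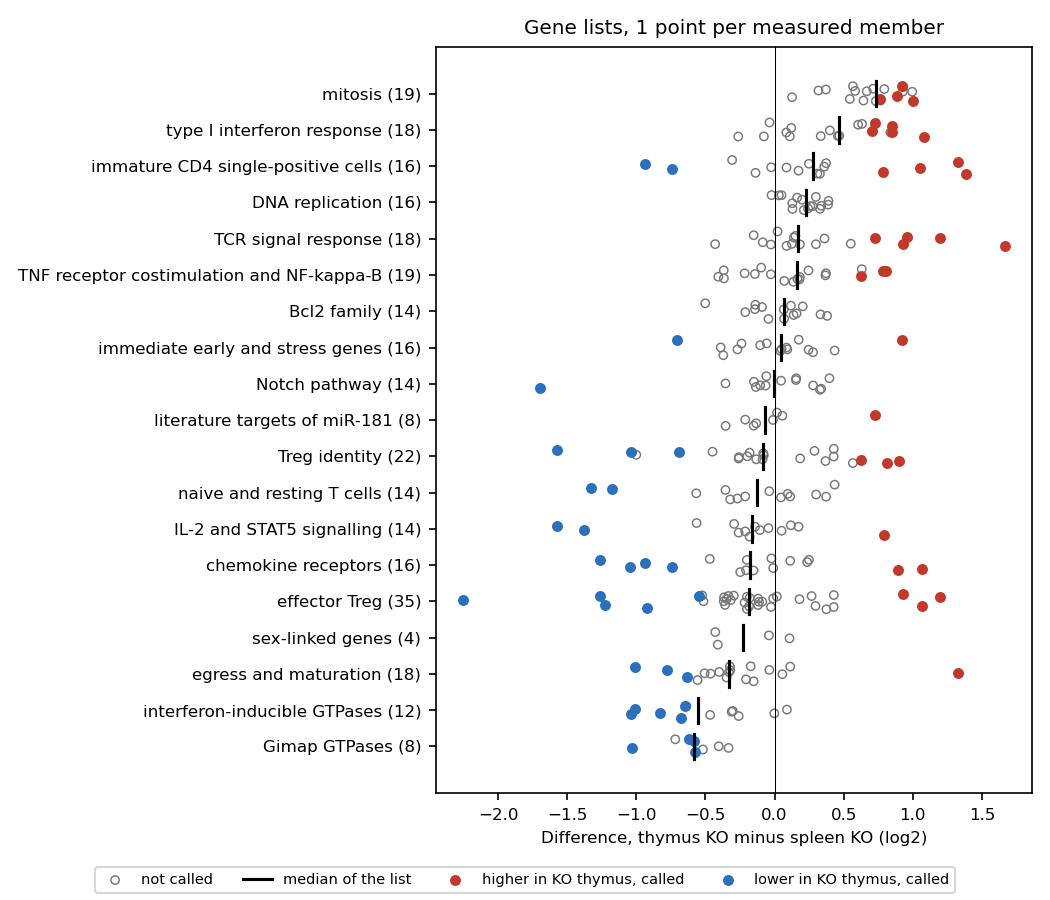
Difference between KO thymus and KO spleen (log2, horizontal axis) of every measured member of 19 gene lists, with the number of members in brackets and lists ordered by median (black bar). Filled points are called, red for higher and blue for lower in KO thymus, and open points are not called. Mitosis genes lie highest, all 19 above 0, and the 8 Gimap genes lowest, all below 0.

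Interferon-related genes fell into a higher and a lower group. Over all genes 0.744% were called higher and 0.974% lower. Of 18 measured genes of the type I interferon response 5 were higher in KO thymus and 0 lower, with a median of 0.46. Ifit1, an antiviral RNA-binding protein, was at 8.72 and 8.70 in KO thymus, against 7.46 and 7.79 in KO spleen (1.08, adjusted p = 0.00925). Irf7, the transcription factor that amplifies the response, was at 8.80 and 8.59 in KO thymus and at 7.68 and 8.02 in KO spleen (0.85). Oas2 (0.85), Rsad2 (0.72) and Rtp4 (0.70) were the other calls. Mx2, a dynamin-like antiviral GTPase outside this list, was at 5.70 and 5.83 in KO thymus and under background at 3.97 and 4.37 in KO spleen, at least 1.21 apart. By contrast, the interferon-inducible GTPases that defend against intracellular microbes were lower, 5 of 12 measured with 0 higher and a median of -0.55. Iigp1 was at 7.57 and 7.66 in KO thymus and at 8.67 and 8.64 in KO spleen (-1.04, adjusted p = 0.0018). Gbp3 was at 6.23 and 6.13 in KO thymus and at 7.19 and 7.19 in KO spleen (-1.01, adjusted p = 0.00207), and Gbp7 (-0.83), Gbp4 (-0.68) and Gbp8 (-0.65) were lower too. Gbp genes are close copies of one another, so that single members are uncertain. Leaving out 1 KO array left between 0 and 2 of the 5 type I calls and between 2 and 3 of the 5 GTPase calls, while both medians kept their sign, at 0.37 to 0.60 and at -0.58 to -0.49.

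Promoters of both interferon groups held the interferon-stimulated response element. The motif, GAAA followed after any 2 bases by another GAAA, was searched on both strands in the 250 bases before the start of each gene in RefSeq (GRCm38.p6). It was present in 3.46% of 27025 genes with a promoter sequence, in 6 of the 13 type I interferon genes and in 6 of the 6 interferon-inducible GTPase genes that had one. Shown are stretches of 60 bases, with the match in capitals as it reads on the gene's strand, of genes that were higher (Ifit1, Rsad2) or lower (Gbp3, Gbp7) in KO thymus.
Ifit1, chr19:34640779-34640838, plus strand, match starting 85 bases before the gene: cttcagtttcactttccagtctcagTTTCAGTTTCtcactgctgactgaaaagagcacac
Rsad2, chr12:26456538-26456597, minus strand, match starting 120 bases before the gene: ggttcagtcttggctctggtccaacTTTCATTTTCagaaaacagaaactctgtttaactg
Gbp3, chr3:142559974-142560033, plus strand, match starting 45 bases before the gene: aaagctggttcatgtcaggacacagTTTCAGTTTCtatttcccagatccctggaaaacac
Gbp7, chr3:142530258-142530317, plus strand, match starting 53 bases before the gene: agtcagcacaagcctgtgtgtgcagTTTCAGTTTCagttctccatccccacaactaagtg
Ifit1, Gbp3 and Gbp7 carry the same 10 letters, although Ifit1 was higher and both Gbp genes were lower in KO thymus. Ifit1 holds a second match before the one shown, and Gbp3 holds a second match that overlaps the one shown. Among all called genes with a promoter sequence, 9 of 124 higher and 9 of 156 lower ones held the motif. A match describes the letters only.

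Mitosis genes were higher as measured in all 19 members on the list, against 52% of all genes, with a median of 0.73. Called higher were 4 of them, against 0.744% of all genes. Kif11, the spindle motor Eg5, was at 7.40 and 6.92 in KO thymus, against 6.28 and 6.02 in KO spleen (1.0, adjusted p = 0.0339). Plk1, a mitotic kinase, was at 6.88 and 6.56 in KO thymus and at 5.80 and 5.86 in KO spleen (0.89). Cenpf, of the kinetochore, was at 5.65 and 5.64 in KO thymus and at 4.83 and 4.62 in KO spleen (0.92), and Tpx2, a spindle assembly factor, differed by 0.76. Mki67, which encodes the proliferation antigen Ki-67, was at 9.61 and 9.06 in KO thymus and at 8.61 and 8.21 in KO spleen without passing (0.93, adjusted p = 0.0702). Averaged over the list, levels were 6.57 and 6.07 in KO thymus and 5.72 and 5.53 in KO spleen, so that thymus KO replicate 1 stood above thymus KO replicate 2. Without thymus KO replicate 1 the median was 0.39 with 1 call, and without spleen KO replicate 2 there were 0 calls and a median of 0.61. Genes of DNA replication did not share the size of this difference. Of 16 measured 0 were called, against 1.72% of all genes. Above 0 were 15, against 52% of all genes, and the median was 0.23. Pcna, the replication clamp, was at 9.84 and 9.37 in KO thymus and at 9.56 and 9.59 in KO spleen, overlapping (0.03). Mcm3, of the replicative helicase, likewise overlapped (-0.02). Histone genes H2ax (8.61 and 8.03 in KO thymus, 7.11 and 7.15 in KO spleen, 1.19), H2bc3 (1.05), H4c12 (0.82) and H2ac20 (0.77), named after their values had been seen, were higher.

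Sterol synthesis, the pathway from acetyl-CoA to cholesterol, was called lower in KO thymus in 5 of 16 measured enzymes and higher in 0. Over all genes 0.974% were called lower. The group was put together after its values had been seen. Cyp51, which demethylates lanosterol, was at 5.35 and 4.89 in KO thymus, against 6.29 and 6.49 in KO spleen (-1.28, adjusted p = 0.00499). Hmgcs1, which makes the precursor of mevalonate, was at 7.30 and 6.83 in KO thymus and at 8.01 and 8.07 in KO spleen (-0.97, adjusted p = 0.0362). Sqle, which oxidises squalene, was at 5.84 and 5.53 in KO thymus and at 6.65 and 6.51 in KO spleen (-0.89), and the cyclase gene Lss (-0.72) and the desaturase gene Sc5d (-0.69) were lower too. Of the 16 enzymes 15 had a negative difference, against 48% of all genes, and the median was -0.53. Insig1, a sterol sensor that is itself induced with the pathway, was at 7.05 and 6.96 in KO thymus and at 7.64 and 7.75 in KO spleen (-0.69). The exporter of cholesterol went the other way. Abca1 was at 7.57 and 7.69 in KO thymus and at 6.16 and 6.38 in KO spleen (1.36, adjusted p = 0.00191). Srebf2, the transcription factor that drives sterol synthesis, was at 8.65 and 8.35 in KO thymus and at 8.64 and 8.79 in KO spleen, overlapping (-0.21). Among lipid enzymes, Dgat2, the last step of triglyceride synthesis, was higher (6.45 and 5.95 in KO thymus, 4.91 and 4.85 in KO spleen, 1.32) and Elovl6, a fatty acid elongase, was lower (-0.81). The enzyme calls numbered 6 without thymus KO replicate 1 and 0 without thymus KO replicate 2 or spleen KO replicate 2, and the median lay between -0.62 and -0.45.

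**Figure D4:**
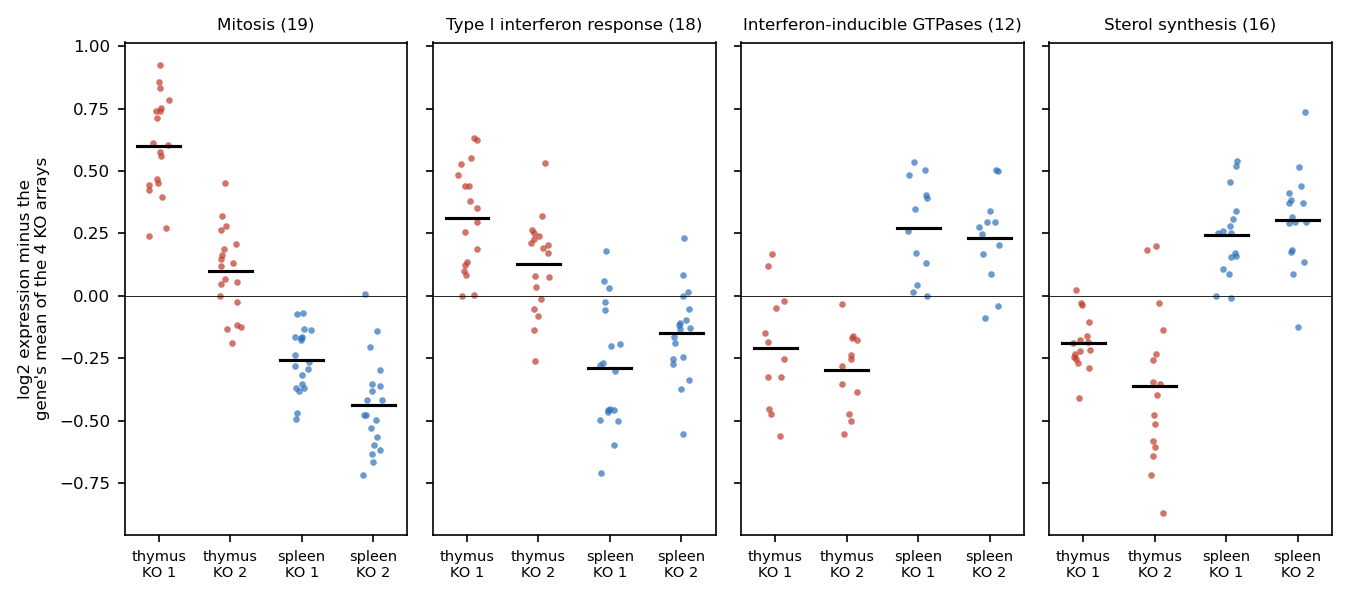
Log2 expression on each KO array minus the gene's mean over the 4 KO arrays (vertical axis) for genes of mitosis, the type I interferon response, interferon-inducible GTPases and sterol synthesis, with the number of measured genes in brackets. Points are genes, red for KO thymus and blue for KO spleen, and bars are means. Mitosis genes on thymus KO replicate 1 lie above those of thymus KO replicate 2, and in all 4 groups the means of both thymus arrays lie on one side of both spleen arrays.

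Further enzymes of cyclic nucleotide and oxygen chemistry differed gene by gene. Among 18 measured phosphodiesterases 3 were called higher and 1 lower, against 0.744% and 0.974% of all genes. Under background in both organs were 8 of the 18. Pde3b was at 5.90 and 5.86 in KO thymus and at 5.12 and 5.29 in KO spleen (0.68), whereas Pde2a was at 6.71 and 6.56 in KO thymus and at 7.75 and 8.23 in KO spleen. Of the NADPH oxidase, whose catalytic subunit Cybb was lower, the organiser Ncf1 was higher (7.41 and 7.26 in KO thymus, 6.61 and 6.58 in KO spleen, 0.74). The partner subunit Cyba did not pass (-0.20, adjusted p = 0.597). The calls of Pde3b and Ncf1 depended on single KO arrays, and Pde3b also lost its call with array weights and on only the 4 KO arrays.

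The organ difference was then set beside that of HET mice, measured on 4 other arrays. Between HET thymus and HET spleen 266 genes were called, 1.2% of those tested, with 0.618% higher and 0.582% lower. Of the 381 genes called in KO, 368 (96.6%) had the same sign in HET, against 66.55% of all genes. In both genotypes 173 genes were called, which is 45.4% of the KO calls and 65.0% of the HET calls. Over the KO calls the median absolute difference was 0.81 in KO, which chose these genes, and 0.65 in HET. Medians of gene lists had the same sign in both genotypes for some lists, with 0.73 in KO and 0.99 in HET for mitosis, 0.46 in KO and 0.43 in HET for the type I interferon response, -0.55 in KO and -0.47 in HET for interferon-inducible GTPases, and -0.58 in KO and -0.54 in HET for Gimap genes. They differed in sign for 4 lists with medians near 0, namely Treg identity (-0.08 in KO and 0.13 in HET), chemokine receptors (-0.18 in KO and 0.16 in HET), effector Treg genes (-0.18 in KO and 0.14 in HET) and immediate early genes (0.05 in KO and -0.11 in HET). These differences between lists were not tested.

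**Figure D5:**
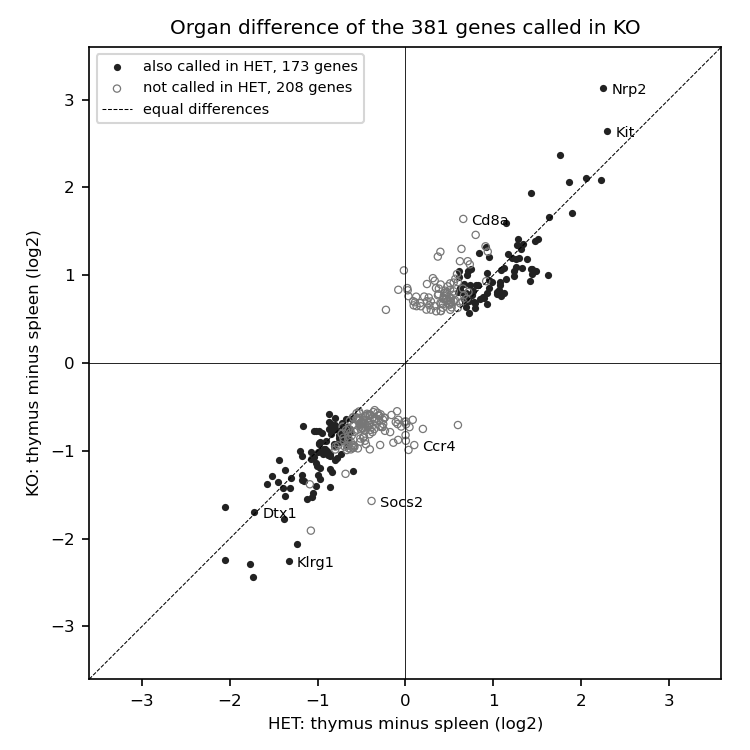
Thymus minus spleen difference (log2) in KO (vertical axis) against that in HET (horizontal axis) for the 381 genes called in KO. Filled points are the 173 genes also called in HET, open points the rest, and the dashed line marks equal differences. The genes were chosen by their KO difference.

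The difference between both organ differences, KO minus HET, was tested directly as an interaction. It was called for 0 genes by limma, with 813 genes at an unadjusted p under 0.05, where 1109 would be met by chance, and a smallest adjusted p of 0.9999. Those with the smallest unadjusted p are given as values only. Klrg1 differed between organs by -2.25 in KO and -1.33 in HET, an interaction of -0.93 (unadjusted p = 0.000628). Its level was 5.81 and 5.58 in KO thymus and 6.65 and 6.48 in HET thymus, and 8.0 and 7.90 in KO spleen and 8.01 and 7.78 in HET spleen. Socs2 differed between organs by -1.57 in KO and -0.38 in HET (interaction -1.19). Cxcr6, a receptor of tissue-resident lymphocytes, differed by -0.01 in KO and 1.00 in HET, and Il18r1, a chain of the interleukin-18 receptor, by 0.17 in KO and 1.10 in HET. Drc1, also on the negative side, differed by -0.31 in KO and 0.61 in HET. On the positive side stood Fos, an immediate early factor, with 0.43 in KO and -0.40 in HET. The others there were Keg1 (0.44 in KO, -0.36 in HET), Zfp710 (0.40 in KO, -0.34 in HET) and Hid1 (0.28 in KO, -0.52 in HET). Last came Olfr1348, an olfactory receptor gene (0.76 in KO, 0.04 in HET). Nrp2 differed by 3.14 in KO and 2.25 in HET, Kit by 2.64 in KO and 2.30 in HET, and Nr4a1 by 1.20 in KO and 1.22 in HET, each with an interaction that did not pass.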

How the data were processed

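Sorted Treg cells were hybridised to Affymetrix arrays. The deposited values are log2 intensities per probe set, made by the authors with the Bioconductor package oligo per the submitters' notes, which give neither version nor summarisation. Array medians lay between 4.58 and 4.70, and no further normalization was applied. The methods name another array design than the one the probe set identifiers belong to, and the legend gives larger pools than the design text. Identifiers, labels and design text were followed. Of 41345 probe sets, 23521 carried 1 symbol. The probe set with the highest mean over 8 arrays was kept per gene. Probe sets with several or no listed symbols were left out. Depth does not apply to arrays, and 2 arrays per group limit the precision.

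All 8 arrays entered 1 model with 4 group means (limma 3.58.1, R 4.3.3, eBayes, 4 residual degrees of freedom), and contrasts were two-sided with Benjamini-Hochberg adjustment over all genes. Nothing was shared between the KO and HET contrasts but the spread estimate. The script was tested on simulated data for the KO contrast over 22180 genes, where 99% of 2-fold and 100% of 4-fold changes were recovered. The simulated noise was normal and independent between arrays, without pool or array effects. The recovery therefore checks the script and does not tell how many such changes were missed on the real arrays. P-values measure the spread between pools. Genes under background on both arrays of an organ are given as bounds, computed against the higher of the background and the measured level on each array. Arrays of one number share mice, so numbers pair arrays of one genotype, although deviations of paired arrays hardly correlated (r = 0.02 in KO, 0.12 in HET).

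Genes to be named were the 15 with the largest difference in each direction above background on all 4 KO arrays and of one sign in both pools. Added to them were the 8 with the largest bounded difference, called list members and up to 4 others per list. Genes of prior interest and the 5 in each direction with the smallest interaction p above the median level completed the rule. Not every gene that met the rule is given in the text. Predicted genes (30 of the calls) are counted, not named, and antigen receptor segments made up 0 calls. Members, lists and rules were chosen with earlier results of these data known. Groups of sterol, inflammasome, oxidase, phosphodiesterase, neuropilin and histone genes, and further single genes outside the rule, were chosen after seeing these values. Lists named in the text are ordinary marker sets compiled by hand. Of 4 measured sex-linked genes 0 were called between the organs. Alternatives were filters, normalizations, spread models, blocks, array weights and leaving out arrays.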

Additional observations from a re-analysis of the deposited data

How the results depend on the processing

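The number of genes called between KO thymus and KO spleen was 381 and stayed within 1.5 times of it under 7 alternatives, between 274 with only the 4 KO arrays and 553 with a trend and robust spread. It was 612 without genes below the median level (fewer genes tested), 849 with the mouse pool as a replicate block on only the 4 KO arrays, and 102 with a 2-fold minimum. The replicate block over all 8 arrays gave 483 calls, and as a random block 512. Leaving out single arrays gave 97 to 430 calls. The causes were not tested. The interaction stayed at 0 calls under every alternative run, with 363 to 1554 genes at an unadjusted p under 0.05. Among 101 named genes that were called, 77 kept the call under every alternative that left out no array, 37 without any 1 KO array, and 0 reversed. The pool block took the call from 1 of these, S100a10. Signal near background and 2 arrays per group limit what can be seen, since the median half-width of a CI was 0.31.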

Other observations

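Some further genes were called outside the named groups and are given as values, chosen after seeing them. Csf1, a growth factor of macrophages, Slamf7, a receptor of activated lymphocytes, and Tnf, the inflammatory cytokine, were lower in KO thymus by -1.27, -1.29 and -0.97. Fasl, the death ligand, was at lower levels by -0.77 while its receptor Fas was higher by 0.67. The multidrug transporter genes Abcb1a (6.53 and 6.15 in KO thymus, 7.75 and 7.61 in KO spleen) and Abcb1b (4.60 and 4.68 in KO thymus, 5.96 and 5.71 in KO spleen) were both lower, although probes of these close copies may not separate them. The bacterial sensors Tlr1 (-1.07) and Tlr6 (-0.81) and the ATP-gated channel P2rx7 (-0.87) were lower too. In the transforming growth factor beta pathway, the receptor gene Tgfbr1 (0.78) and the feedback inhibitors Smad7 (0.59) and Pmepa1 (1.05) were higher in KO thymus. The dual-specificity phosphatase Dusp4 was higher by 1.07.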
